A study of Mus musculus with 22 samples.

Results

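The p53 target genes described here are Cdkn1a, Btg2, Gadd45a, Ccng1, Mdm2, Bax, Phlda3, Trp53inp1, Zmat3 and Sesn2, chosen by name. They are 10 of the 16469 gene rows of a table of mouse liver RNA. The livers came from C57BL6J mice and were perfused with saline before RNA was taken. The mice had been given lipid nanoparticles carrying a Dsi-RNA, a double-stranded RNA that the enzyme Dicer cuts into a silencing RNA, and were killed 24 h later. The table's column names give Hprt, a purine salvage enzyme, as its target. There were 3 livers at 2 mg/kg (livers 3, 16 and 36) and 4 livers given BLT-1 at 1 mg/kg and, 24 h after it, particles at 0.2 mg/kg (livers 6, 7, 19 and 20). A further 8 livers had 0.2 mg/kg alone (livers 4, 5, 17, 18, 30, 31, 38 and 39), and 7 were controls (livers 1, 2, 14, 15, 27, 28 and 29). BLT-1 is an inhibitor of the HDL receptor SR-BI. The labels do not say what the controls were given and no group had BLT-1 alone.

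p53, encoded by Trp53, is a transcription factor that is normally destroyed quickly and accumulates after DNA damage or other stress. It binds a palindromic response element and switches on genes that stop the cell cycle, trigger cell death, adjust metabolism and restrain p53 itself. In liver its targets are known to respond to genotoxic drugs, regeneration and some forms of metabolic stress, and several of them are also induced without p53. The members fall into 4 roles. Cdkn1a encodes p21, the inhibitor of cyclin-dependent kinases, Btg2 an antiproliferative protein, Gadd45a a growth arrest and DNA damage protein, and Ccng1 cyclin G1. Mdm2 encodes the ubiquitin ligase that degrades p53 and so closes a feedback loop. Bax encodes a pore-forming protein of the mitochondrial death pathway, Phlda3 a repressor of Akt, Trp53inp1 a stress protein that acts with p53 and in autophagy, and Zmat3 an RNA-binding protein. Sesn2 encodes sestrin 2, an inhibitor of mTORC1.

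RefSeq promoter windows (mouse build GRCm38.p6, 250 bases before to 50 after each start, 32851 windows of 300 bases) matched 8 of the 10 members, in 9 windows because Cdkn1a has 2 starts. Trp53inp1 and Zmat3 had no entry. The p53 response element, 2 decamers with at most 1 base between them, was searched with at most 2 bases off its consensus and the central C and G of each decamer kept. It reads the same on both strands. It was found in 3 members, Cdkn1a, Ccng1 and Bax, and in 0.682% of all windows. With at most 1 base off, it was in Cdkn1a and Ccng1 and in 0.110% of all windows. The 3 windows are shown because they carry the letters that p53 is known to read. They run 5′ to 3′ on the gene's strand, with the element in capitals.
Cdkn1a, upstream start, chr17:29090729-29091028, plus strand: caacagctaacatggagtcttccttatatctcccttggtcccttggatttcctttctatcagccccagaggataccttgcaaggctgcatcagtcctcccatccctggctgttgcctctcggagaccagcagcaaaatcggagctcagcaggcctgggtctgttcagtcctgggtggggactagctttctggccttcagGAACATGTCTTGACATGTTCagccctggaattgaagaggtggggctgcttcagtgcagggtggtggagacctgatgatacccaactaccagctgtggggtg
Ccng1, chr11:40755237-40755536, minus strand: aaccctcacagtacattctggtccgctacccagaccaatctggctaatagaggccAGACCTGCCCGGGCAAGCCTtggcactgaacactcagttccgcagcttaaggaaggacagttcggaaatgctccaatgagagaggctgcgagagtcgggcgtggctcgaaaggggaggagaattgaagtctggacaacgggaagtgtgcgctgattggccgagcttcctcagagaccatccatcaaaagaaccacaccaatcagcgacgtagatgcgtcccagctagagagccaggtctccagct
Bax, chr7:45466849-45467148, minus strand: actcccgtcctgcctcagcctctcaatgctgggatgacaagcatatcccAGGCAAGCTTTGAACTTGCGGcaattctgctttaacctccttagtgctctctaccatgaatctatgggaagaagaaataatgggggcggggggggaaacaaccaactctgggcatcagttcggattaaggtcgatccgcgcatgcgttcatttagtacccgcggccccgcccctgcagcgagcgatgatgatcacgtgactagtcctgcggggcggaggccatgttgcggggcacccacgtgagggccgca
The element began 51 bases before the start in Cdkn1a, 195 before it in Ccng1 and 201 before it in Bax. It was 1 base off the consensus in Cdkn1a, 1 in Ccng1 and 2 in Bax. At least 1 exact decamer was in 5 members (these 3, Mdm2 and Gadd45a) and in 8.36% of all windows. It read GAACTTGCCT in Mdm2 and GGGCTAGCCC in Gadd45a. Where no element was found, these letters are not in this window, and nothing follows about p53 binding elsewhere.

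The libraries were read from the transcripts' 3′ ends and held 7152596 to 15101565 reads each. Levels are given as CPM, reads scaled to library size, with library sizes adjusted by TMM (a scaling over genes). Hprt was at 15.3, 17.7 and 13.01 CPM in livers 3, 16 and 36 at 2 mg/kg, against 24.8 to 38.7 in controls, and its levels in the other 2 particle groups overlapped those of controls. Xist, the RNA of the inactive X chromosome, was at 2.82 to 4.88 CPM in the 3 livers at 2 mg/kg and at most 0.312 in every other liver. The Y-linked gene Ddx3y was at 6.47 to 8.90 CPM at 2 mg/kg, against 15.6 to 18.5 in controls. The 2 mg/kg dose and this sex-linked pattern therefore cannot be told apart in any comparison below. Defining markers of hepatocytes were high throughout: Alb, Apoa1, Ttr, Cps1 and Hnf4a summed to 15649 to 19290 CPM at 2 mg/kg and 20340 to 25406 in controls. Alb, Ttr and Apoa1 were called lower at 2 mg/kg than in controls (limma, adjusted p under 0.05), where 7.87% of all genes were called. Alb was also called lower at 0.2 mg/kg than in controls (5.76% of all genes), and Ttr at 2 mg/kg than at 0.2 mg/kg (5.97%). The calls against controls were lost without some single livers. These are whole livers, so that a change in the number of cells of a type and a change in RNA per cell cannot be told apart.

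The p53 target genes were expressed at low to moderate levels, and 7 of the 10 could be tested by limma. Phlda3, Zmat3 and Sesn2 reached 1 CPM in 0, 0 and 1 of the 22 livers and did not pass the filter (1 CPM in at least 3 livers). The tool edgeR, with its own filter, tested 8 members, these 7 and Sesn2, and did not call Sesn2 in any comparison. Of the 7 tested by limma, 1 was called at 0.2 mg/kg against controls: Trp53inp1, which was higher. In that comparison 5.76% of the 10763 genes tested were called by limma at an adjusted p under 0.05, and 5.03% by edgeR. No member was called at 2 mg/kg against controls, where limma called 7.87% of all genes and edgeR 7.10%, or at 2 mg/kg against 0.2 mg/kg, where they called 5.97% and 5.51%. None was called after BLT-1 plus 0.2 mg/kg against 0.2 mg/kg alone, where either tool called 0.0929% of genes, or against controls, where limma called 2.80% and edgeR 2.71%. An unadjusted limma p under 0.05 was reached by 4 of the 7 members at 0.2 mg/kg against controls and by 3 at 2 mg/kg against controls. It was reached by 1 at 2 mg/kg against 0.2 mg/kg, 1 after BLT-1 plus 0.2 mg/kg against 0.2 mg/kg, and 0 after BLT-1 plus 0.2 mg/kg against controls. Among all 10763 genes tested, 1910, 2094, 1945, 883 and 1620 reached it in these 5 comparisons, in the same order. The 3 comparisons with controls share those controls, and the 3 comparisons with the 0.2 mg/kg group share its livers.

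**Figure D1:**
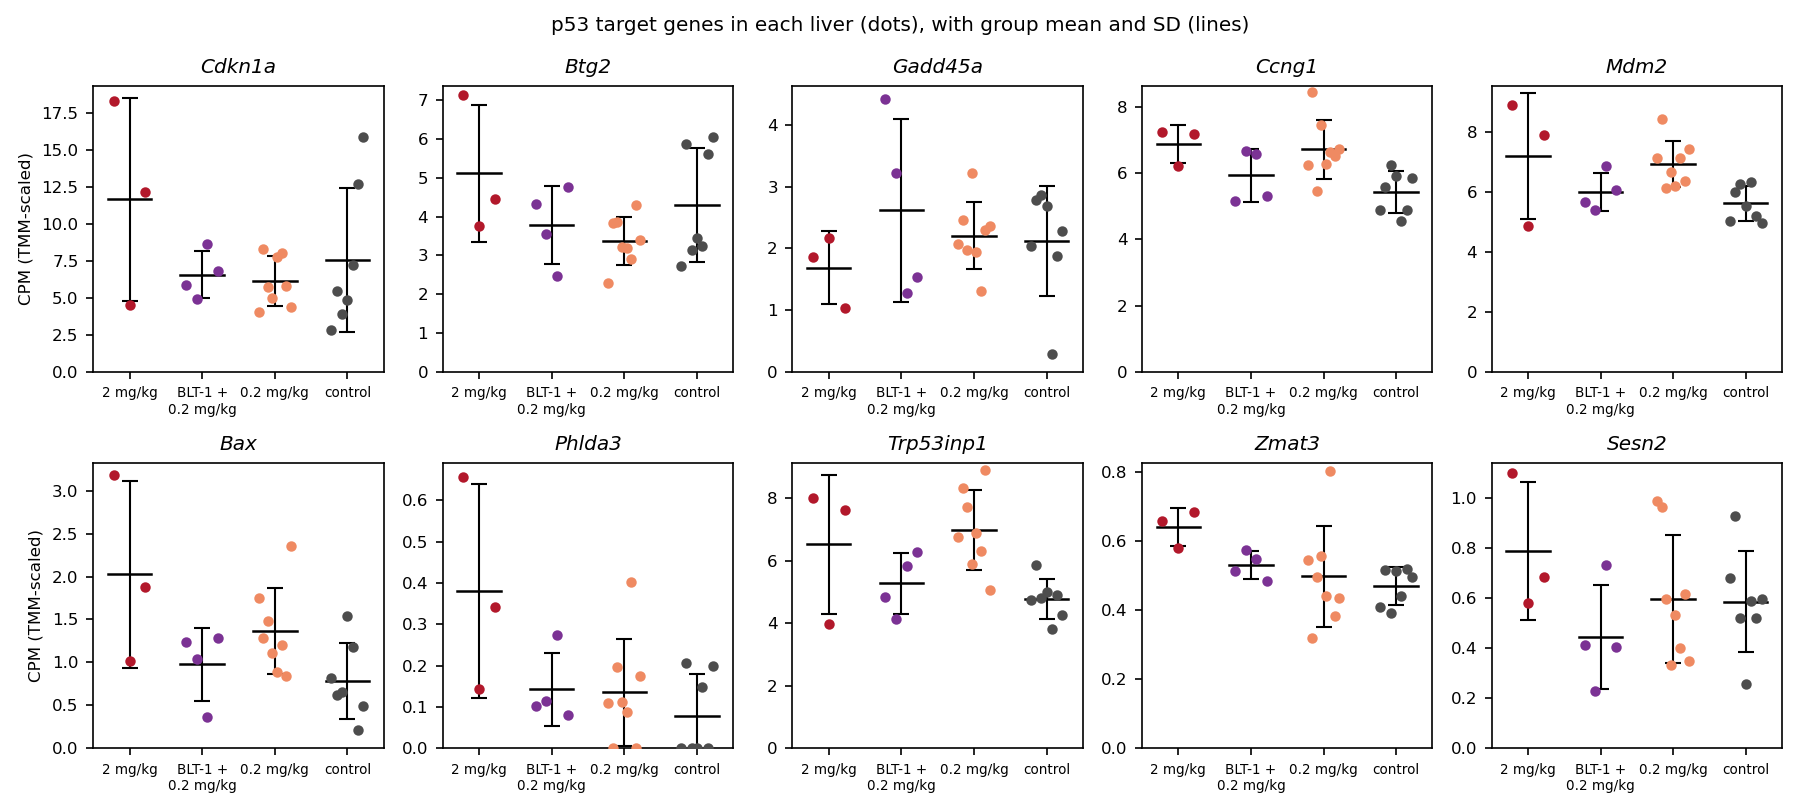
Level of each p53 target gene in each liver, in TMM-scaled CPM (y axis, a different scale in each panel), at 2 mg/kg, after BLT-1 plus 0.2 mg/kg, at 0.2 mg/kg and in controls. Dots are livers, and lines are the group mean and SD. Trp53inp1 lies at 5.06 to 8.90 in the 0.2 mg/kg livers and 3.83 to 5.88 in controls, and at 2 mg/kg liver 16 lies below livers 3 and 36 for 9 of the 10 genes.

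Trp53inp1 was the member with a called difference. In the livers given 0.2 mg/kg it ranged over 5.06, 6.84 and 8.90 CPM (lowest, median and highest), against 3.83, 4.82 and 5.88 in controls. Of the 8 livers at 0.2 mg/kg, 7 lay above the highest control, and the exception, liver 39, lay within the controls. The groups averaged 6.99 ± 1.28 CPM at 0.2 mg/kg (SD, n = 8) and 4.78 ± 0.637 in controls (SD, n = 7). The difference was 0.49 ± 0.14 (log2 fold change ± SE), or 1.41-fold, with a limma adjusted p of 0.0347 and an edgeR adjusted p of 0.0351. Unless another scale or setting is named, folds are on the log2(value + 0.5) scale, which understates the change of genes with few reads. In the other groups Trp53inp1 was at 8.0, 3.98 and 7.62 CPM in livers 3, 16 and 36 at 2 mg/kg and at 4.83, 4.14, 5.85 and 6.28 in livers 6, 7, 19 and 20 given BLT-1 plus 0.2 mg/kg. All 4 livers given BLT-1 lay below the median of the 0.2 mg/kg group, at −0.37 ± 0.16 against it (limma adjusted p = 0.550), and the ranges overlapped. At 2 mg/kg the difference from controls was 0.37 ± 0.18 (limma adjusted p = 0.273).

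Pecam1, 1 of 5 endothelial markers listed, differed in the same directions at 0.2 mg/kg and after BLT-1. This adhesion molecule of endothelial cells was at 4.39 to 7.82 CPM after BLT-1 plus 0.2 mg/kg, 11.2 to 42.8 at 0.2 mg/kg and 6.98 to 20.4 in controls. Its lowest value at 0.2 mg/kg was that of liver 39, the liver in which Trp53inp1 was lowest too. Its highest there, 42.8 CPM, was that of liver 31, where Trp53inp1 was at 6.33 CPM, below that group's median of 6.84. A relation of the 2 genes from liver to liver was not tested. Pecam1 was higher at 0.2 mg/kg than in controls (1.316 ± 0.27 on the log2 scale, limma adjusted p = 0.00499) and lower after BLT-1 plus 0.2 mg/kg than at 0.2 mg/kg alone (−2.11 ± 0.32, limma adjusted p = 0.00793). The call after BLT-1 was lost without liver 6, and both calls were lost on the authors' spike-in scale. Pecam1 was at 8.0, 5.50 and 7.19 CPM in livers 3, 16 and 36 at 2 mg/kg. The 5 sinusoidal endothelial markers (Pecam1, Stab2, Clec4g, Lyve1 and Kdr) summed to 35.8 to 41.3 CPM after BLT-1 plus 0.2 mg/kg, 38.8 to 73.9 at 0.2 mg/kg and 40.6 to 54.0 in controls. Pecam1 was the 1 of the 5 that was called in these 2 comparisons. The median log2 fold change of the 5 was −0.09 at 0.2 mg/kg against controls, below 0 although Pecam1 was higher. It was −0.03 after BLT-1 plus 0.2 mg/kg against 0.2 mg/kg alone. The part of endothelial cells in the values of Trp53inp1 was not tested.

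The call for Trp53inp1 was a narrow one, while its direction was stable. It was made in 13 of the 22 fits that left out 1 liver, and the log2 fold change lay between 0.45 and 0.55 in all 22. The call was lost without control 1, 14, 27, 28 or 29 and without 0.2 mg/kg liver 5, 17, 30 or 38. On the authors' spike-in scale the median log2 fold change of all genes was −0.11. With that median subtracted, the log2 fold change of Trp53inp1 was 0.52. The limma fit was made without the subtraction and did not call the gene (adjusted p = 1.00). The liver numbers run in 4 stretches (1 to 7, 14 to 20, 27 to 31 and 36 to 39), and the labels do not say what a stretch is. Within the 3 stretches that hold both groups the log2 difference between 0.2 mg/kg and control livers was 0.47, 0.42 and 0.56, while with the stretch as a block in the fit the gene was not called.

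**Figure D2:**
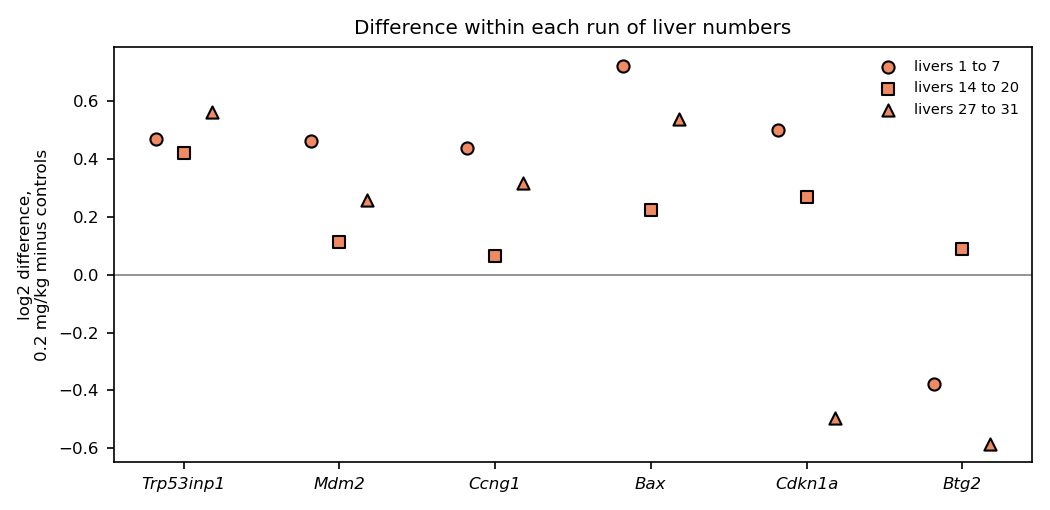
Log2 difference in mean level between 0.2 mg/kg livers and controls (y axis) within each stretch of consecutive liver numbers that holds both groups, for 6 p53 target genes. Each mark is 1 stretch with 2 livers at 0.2 mg/kg and 2 or 3 controls. Trp53inp1, Mdm2, Ccng1 and Bax lie above 0 in all 3 stretches, while Cdkn1a and Btg2 lie on both sides of it.

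Mdm2, the feedback regulator, was at 8.88, 4.85 and 7.87 CPM in livers 3, 16 and 36 at 2 mg/kg, and at 5.66, 5.41, 6.86 and 6.04 in livers 6, 7, 19 and 20 given BLT-1. It ranged over 6.14, 6.89 and 8.43 (lowest, median and highest) at 0.2 mg/kg and 4.96, 5.51 and 6.33 in controls. All 8 livers at 0.2 mg/kg lay above the controls' median and 6 above the highest control, while liver 16 at 2 mg/kg was the lowest of all 22. The log2 fold change against controls was 0.30 ± 0.13 at 2 mg/kg (limma adjusted p = 0.209) and 0.28 ± 0.10 at 0.2 mg/kg (limma adjusted p = 0.114). With only the 2 groups compared in the fit, Mdm2 was also called at 0.2 mg/kg (limma adjusted p = 0.0315).

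Ccng1, cyclin G1, was at 7.24, 6.22 and 7.19 CPM in livers 3, 16 and 36 at 2 mg/kg and at 5.14, 6.67, 6.58 and 5.32 in livers 6, 7, 19 and 20 given BLT-1. It ranged over 5.44, 6.58 and 8.43 at 0.2 mg/kg and 4.56, 5.57 and 6.25 in controls. All 3 livers at 2 mg/kg and 7 of the 8 at 0.2 mg/kg lay above the controls' median, and the groups overlapped. The log2 fold change was 0.32 ± 0.11 at 2 mg/kg against controls (limma adjusted p = 0.0915) and 0.28 ± 0.09 at 0.2 mg/kg against controls (limma adjusted p = 0.0551). The value at 0.2 mg/kg passed the threshold without 0.2 mg/kg liver 17 or without control 14, with a limma adjusted p as low as 0.0273.

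Bax had few reads, 263 over the 22 livers. It was at 3.18, 1.01 and 1.88 CPM in livers 3, 16 and 36 at 2 mg/kg and at 1.23, 1.04, 0.366 and 1.29 in livers 6, 7, 19 and 20 given BLT-1. It ranged over 0.844, 1.24 and 2.36 at 0.2 mg/kg and 0.208, 0.652 and 1.54 in controls. All 3 livers at 2 mg/kg and all 8 at 0.2 mg/kg lay above the controls' median, yet the ranges overlapped. The log2 fold change was 0.95 ± 0.31 at 2 mg/kg against controls, the largest among the 7 tested members in any comparison (limma adjusted p = 0.0675, edgeR adjusted p = 0.0639). At 0.2 mg/kg against controls it was 0.57 ± 0.23 (limma adjusted p = 0.192). Leaving out liver 16 raised the 2 mg/kg value to 1.28 (limma adjusted p = 0.0202). Without control 15 (1.08, limma adjusted p = 0.0350) or without liver 19 given BLT-1 (0.95, limma adjusted p = 0.0497) it was also called.

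Cdkn1a was the most variable of the members with over 1 CPM in every liver. It was at 18.3, 4.56 and 12.2 CPM in livers 3, 16 and 36 at 2 mg/kg and at 5.86, 4.95, 8.69 and 6.85 in livers 6, 7, 19 and 20 given BLT-1. It ranged over 4.05, 5.79 and 8.33 at 0.2 mg/kg and 2.86, 5.46 and 15.9 in controls, of which livers 28 and 29 stood at 12.7 and 15.9 and the other 5 at most at 7.21. Thus 2 of the 3 livers at 2 mg/kg lay above every 0.2 mg/kg liver, while 1 lay below the controls' median. The log2 fold change was 0.61 ± 0.42 at 2 mg/kg against controls (limma adjusted p = 0.464) and 0.72 ± 0.41 against 0.2 mg/kg (limma adjusted p = 0.372). At 0.2 mg/kg against controls it was −0.11 ± 0.31 (limma adjusted p = 0.917), and BLT-1 plus 0.2 mg/kg gave 0.11 ± 0.37 against 0.2 mg/kg (limma adjusted p = 0.971). Single livers decided the size at 2 mg/kg against controls: it was 1.15 without liver 16 (limma adjusted p = 0.111), 0.21 without liver 3, and 1.04 without controls 28 and 29 (limma adjusted p = 0.0577).

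Btg2 and Gadd45a, the other growth arrest genes, were not called in any comparison by limma or edgeR. Btg2 was at 7.13, 3.76 and 4.45 CPM in livers 3, 16 and 36 at 2 mg/kg, 2.47 to 4.75 after BLT-1 plus 0.2 mg/kg, 2.30 to 4.30 at 0.2 mg/kg and 2.72 to 6.05 in controls. Its log2 fold change was 0.51 ± 0.23 at 2 mg/kg against 0.2 mg/kg (limma adjusted p = 0.255) and −0.27 ± 0.18 at 0.2 mg/kg against controls (limma adjusted p = 0.489). Gadd45a was at 1.86, 2.17 and 1.03 CPM in livers 3, 16 and 36, at 4.42, 3.22, 1.28 and 1.53 in livers 6, 7, 19 and 20, at 1.31 to 3.22 at 0.2 mg/kg and at 0.294 to 2.87 in controls. It was the tested member with a fold below 0 at 2 mg/kg against controls (−0.18 ± 0.37, limma adjusted p = 0.851). After BLT-1, Gadd45a split by stretch of liver numbers: livers 6 and 7 lay above and livers 19 and 20 below the means of the 0.2 mg/kg livers and of the controls in their own stretch.

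The 3 members with few reads were not tested in the limma fit with the filter, and counting error is large for them. Phlda3 had 34 reads over all livers: 6, 2 and 4 in livers 3, 16 and 36 at 2 mg/kg (0.658, 0.145 and 0.342 CPM), and 0 in 2 livers at 0.2 mg/kg and 4 controls. A count of 0 allows up to 0.217 to 0.442 CPM in a library of these sizes. Zmat3 was at 0.658, 0.579 and 0.685 CPM in livers 3, 16 and 36 at 2 mg/kg, each from 6 to 8 reads, against 0.391 to 0.521 in controls, each from 3 to 5 reads. It was the 1 of the 10 members whose groups did not overlap at 2 mg/kg against controls, as was the case for 5.69% of all 16469 gene rows and 2.21% of the 5706 under the filter. Without the filter its limma adjusted p was 0.292. Sesn2 was at 1.10, 0.579 and 0.685 CPM in the same 3 livers, 0.230 to 0.731 after BLT-1 plus 0.2 mg/kg, 0.333 to 0.984 at 0.2 mg/kg and 0.256 to 0.928 in controls. Without the filter Phlda3 and Sesn2 were not called in any of the 5 comparisons.

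**Figure D3:**
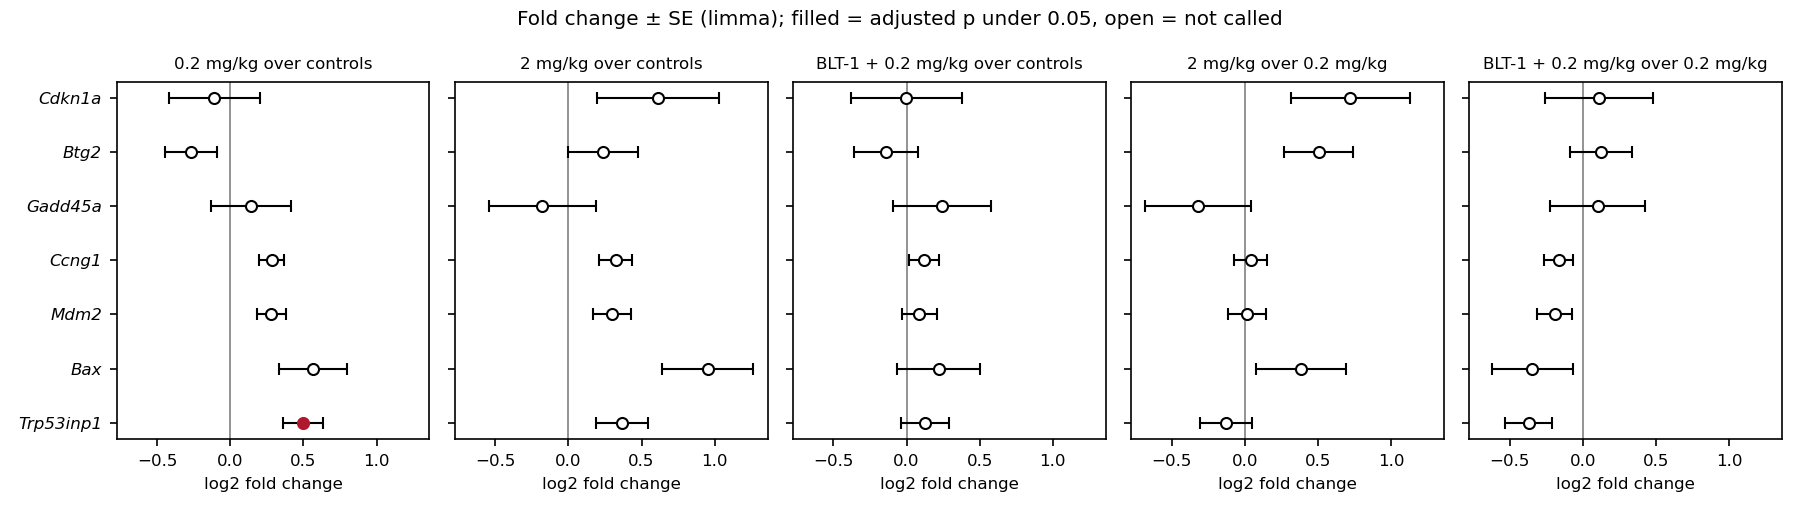
Log2 fold change with its SE (x axis) of the 7 tested p53 target genes in each of the 5 comparisons, from limma on TMM-scaled values. Filled marks are called at an adjusted p under 0.05 and open marks are not. Trp53inp1 at 0.2 mg/kg over controls (0.49) is the filled mark, and Bax at 2 mg/kg over controls (0.95) is the farthest from 0.

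Over the 7 tested members, the median log2 fold change was 0.28 at 0.2 mg/kg against controls, beside 0.00 over all genes tested, with 5 above 0 and 2 below. At 2 mg/kg against controls it was 0.32, beside 0.01 over all genes, with 6 above 0. At 2 mg/kg against 0.2 mg/kg it was 0.04, with 5 above 0. After BLT-1 plus 0.2 mg/kg it was −0.17 against 0.2 mg/kg alone, with 3 above 0, and 0.12 against controls, with 5 above 0. By mean level the groups stood in the order 2 mg/kg, 0.2 mg/kg, BLT-1 plus 0.2 mg/kg and controls for Mdm2, Ccng1 and Bax. For Trp53inp1 the 0.2 mg/kg group came first, followed by 2 mg/kg, BLT-1 plus 0.2 mg/kg and controls. For Cdkn1a and Btg2 the order was 2 mg/kg, controls, BLT-1 plus 0.2 mg/kg and 0.2 mg/kg. Neighbouring groups in these orders overlapped for all of these genes.

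The livers given 2 mg/kg differed among themselves. Liver 3 had the highest level of all 22 livers for 6 of the 10 members (Cdkn1a, Btg2, Mdm2, Bax, Phlda3 and Sesn2) and was among the 3 highest for 9, with a median rank of 1. Liver 36 was among the 3 highest for 4 members, with a median rank of 4. Liver 16 was among the 3 highest for 0 members, with a median rank of 12.5, and was the lowest of all 22 for Mdm2. Leaving out liver 16, the comparison of 2 mg/kg with controls called 3 members as higher: Mdm2 (0.54, limma adjusted p = 0.00379), Trp53inp1 (0.66, limma adjusted p = 0.0150) and Bax (1.28, limma adjusted p = 0.0202). Leaving out liver 3 or liver 36 instead, it called 0 members. Over all genes tested, limma called 847 of 10763 with every liver and 1056 of 10709 without liver 16. It called 373 of 10675 without liver 3 and 427 of 10705 without liver 36. Liver 16 stood out by low levels of these same members, so that its removal raises their folds. In the stretch of livers 1 to 7 the log2 difference between liver 3 and the controls was 2.07 for Cdkn1a, 1.60 for Bax, 0.65 for Mdm2 and 0.55 for Trp53inp1. In the stretch of livers 14 to 20 the difference between liver 16 and the controls was 0.06, −0.02, −0.25 and −0.27 for the same genes, and liver 36 has no control in its stretch.

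**Figure D4:**
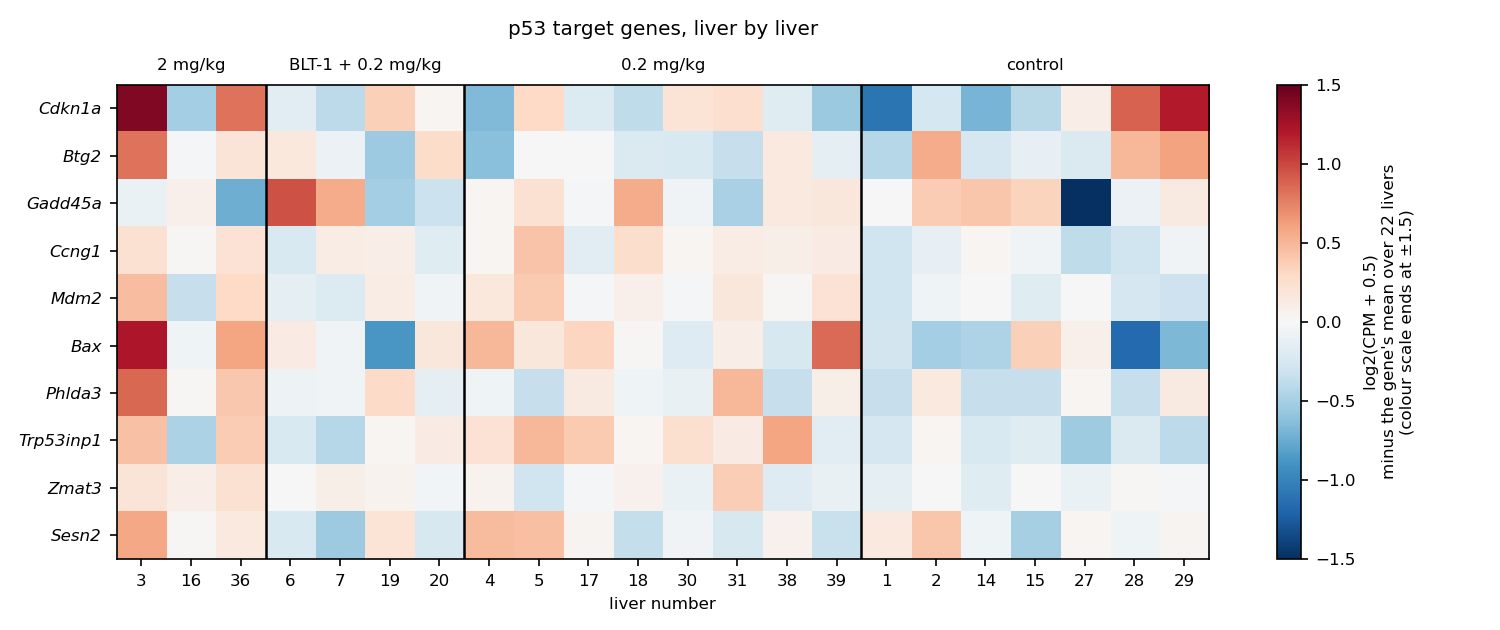
Level of each p53 target gene (rows) in each liver (columns, by liver number and group), as log2(CPM + 0.5) minus the gene's mean over the 22 livers. The colour scale ends at 1.5 in both directions. Liver 3 is high in most rows, liver 16 is not, and controls 28 and 29 are high for Cdkn1a and Btg2 and low for Bax.

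Some marker lists followed the order of livers 3, 36 and 16, upward or downward, and others did not. The neutrophil markers in the table (3 of 5: S100a8, S100a9 and Retnlg) summed to 111, 39.9 and 101 CPM in livers 3, 16 and 36 at 2 mg/kg, against 6.93 to 59.7 in controls, where controls 28 and 29 held 59.7 and 56.4. The 5 hepatocyte markers summed to 15649, 19290 and 17074 CPM in livers 3, 16 and 36. The 4 cholangiocyte markers summed to 9.21, 4.63 and 6.25 CPM in the same livers. The other lists ran in another order. The 5 T and NK cell markers summed to 9.98, 6.0 and 4.45 CPM in livers 3, 16 and 36, and the 4 monocyte markers to 2.74, 6.22 and 7.36, lowest in liver 3. The 5 sinusoidal endothelial markers summed to 43.0, 40.3 and 37.3 CPM, the 4 stellate cell markers to 109, 111 and 97.3 and the 3 erythroid markers to 636, 521 and 419. The 6 Kupffer cell markers summed to 11.2, 13.2 and 10.9 CPM in livers 3, 16 and 36, 9.73 to 17.7 at 0.2 mg/kg and 17.2 to 24.0 in controls, and the 4 monocyte markers to 2.33 to 17.5 CPM at 0.2 mg/kg and 0.952 to 3.59 in controls. None of these markers was at 0 in a whole group. The part of these cells in the members' values was not tested. Hprt did not follow this order, with 15.3, 17.7 and 13.01 CPM in livers 3, 16 and 36.

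Whether livers with more Cdkn1a also had more of the other members was examined after subtracting each group's mean, over 22 livers and 9 relations. Btg2 gave the highest values, with a Pearson r of 0.60 (permutation p = 0.0219, adjusted p = 0.197) and a Spearman rho of 0.53 (permutation p = 0.0351, adjusted p = 0.249). Without control 29 and 2 mg/kg liver 16, the 2 livers farthest from the median, r was 0.44. For Mdm2 r was 0.35 (permutation p = 0.275, adjusted p = 0.398) and rho 0.25 (permutation p = 0.339, adjusted p = 0.436), and without controls 28 and 29 r was 0.74 (permutation p = 0.0099, adjusted p = 0.0891). Bax gave an r of −0.19 (permutation p = 0.498, adjusted p = 0.498). None of the 9 relations passed the adjustment. Among tested genes that are no members, the levels most like Cdkn1a over the 22 livers were those of Pgm3 (r = 0.83), Ofd1 (0.82) and Chmp2b (0.82). Most like Mdm2 were F11, which encodes coagulation factor XI (0.80), and the interferon-induced genes Oasl1 (0.80) and Irgm2 (0.79), and most like Ccng1 were Phf11d (0.79), Parp12 (0.78) and Poglut3 (0.78). These r values describe livers that share groups and depth, and the genes were picked as the highest.

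Trp53 itself was at 0.439, 0.796 and 0.856 CPM in livers 3, 16 and 36 at 2 mg/kg, 0.457 to 2.26 after BLT-1 plus 0.2 mg/kg, 0.547 to 1.22 at 0.2 mg/kg and 0.391 to 0.833 in controls, and was not called in any comparison by limma or edgeR. Of 14 listed p53 regulators, 12 were in the table and 8 were tested, and 0 were called in any of the 5 comparisons. The 2 with the highest levels were Usp7, a deubiquitinase of Mdm2 and p53, and Mdm4, which binds and inhibits p53. Usp7 averaged 5.52 ± 0.714 CPM at 0.2 mg/kg (SD, n = 8) and 5.89 ± 1.18 in controls (SD, n = 7). Mdm4 averaged 3.35 ± 0.987 CPM at 0.2 mg/kg (SD, n = 8) and 2.58 ± 0.797 in controls (SD, n = 7; 0.32 ± 0.16 on the log2 scale, limma adjusted p = 0.318). The median log2 fold change of the 8 was 0.22 at 0.2 mg/kg and 0.07 at 2 mg/kg, each against controls.

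Of 43 other p53 targets listed, 40 were in the table and 25 were tested. At 2 mg/kg against controls 1 rose and 1 fell, and the median log2 fold change of the 25 was −0.01. In that comparison limma called 7.87% of all genes. At 2 mg/kg against 0.2 mg/kg it called 5.97%, and 1 of the 25 fell. Fas, which encodes a death receptor, was higher, with 16 ± 1.46 CPM at 2 mg/kg (SD, n = 3) and 10.5 ± 2.79 in controls (SD, n = 7). Its log2 fold change was 0.62 ± 0.18 (limma adjusted p = 0.0365, edgeR adjusted p = 0.0565), and the call was lost in 7 of the 22 fits that left out 1 liver, with each of livers 3, 16 and 36 and controls 1, 14, 15 and 27. Trp53inp2, an autophagy protein related to Trp53inp1, was lower, with 13.9 ± 1.18 CPM at 2 mg/kg (SD, n = 3) and 16.9 ± 0.497 in controls (SD, n = 7; −0.27 ± 0.07 on the log2 scale, limma adjusted p = 0.0165). It was also lower at 2 mg/kg than at 0.2 mg/kg (17.4 ± 1.23 CPM at 0.2 mg/kg, SD, n = 8; −0.31 ± 0.07, limma adjusted p = 0.00795). Both calls for Trp53inp2 were lost without liver 3. In the other 3 comparisons 0 of the 25 were called, and their median log2 fold change lay between 0.01 and 0.12. Rps27l, the p53-inducible ribosomal protein relative with the highest level among them, averaged 599 ± 21.0 CPM at 0.2 mg/kg (SD, n = 8) and 564 ± 24.9 in controls (SD, n = 7; limma adjusted p = 0.231).

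Lists of other programmes, some of which can switch on p53 targets without p53, were examined too, and their part in the members' levels was not tested. Of 12 tested genes of the integrated stress response, 1 was called in 1 comparison: Ddit4, an mTORC1 inhibitor, rose after BLT-1 plus 0.2 mg/kg, to 10.4 ± 2.03 CPM (SD, n = 4), against 4.82 ± 1.63 in controls (SD, n = 7). The log2 fold change was 1.08 ± 0.23 (limma adjusted p = 0.0120), and the call was lost without liver 7 or liver 19 given BLT-1. In that comparison limma called 2.80% of all genes. Of 11 tested immediate early genes 0 were called in any comparison, with a median log2 fold change of −0.29 at 0.2 mg/kg against controls. The transcription factor gene Junb was the nearest to a call there, with 6.76 ± 1.5 CPM at 0.2 mg/kg (SD, n = 8) and 10.4 ± 2.47 in controls (SD, n = 7; limma adjusted p = 0.0631). Of 16 cell cycle genes, 3 had enough reads to be tested and 0 were called. Pcna, the replication clamp, averaged 22.8 ± 1.66 CPM at 2 mg/kg (SD, n = 3) and 19.9 ± 2.87 in controls (SD, n = 7; limma adjusted p = 0.350).

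Of 11 tested glucocorticoid and fasting genes, 1 rose and 1 fell at 2 mg/kg against controls. Over all genes limma called 7.87% there, 5.97% at 2 mg/kg against 0.2 mg/kg and 5.76% at 0.2 mg/kg against controls. After BLT-1 plus 0.2 mg/kg it called 0.0929% against 0.2 mg/kg alone and 2.80% against controls. Sgk1, a kinase induced by glucocorticoids, averaged 6.13 ± 1.53 CPM at 2 mg/kg (SD, n = 3) and 3.36 ± 0.437 in controls (SD, n = 7; 0.76 ± 0.16 on the log2 scale, limma adjusted p = 0.00443). Angptl4, an inhibitor of lipoprotein lipase, averaged 9.72 ± 1.18 CPM at 2 mg/kg and 15.5 ± 3.83 in controls (−0.62 ± 0.17, limma adjusted p = 0.0269). Both calls were lost without liver 3, and that of Angptl4 also without liver 36. Without liver 3 the calls over all genes in this comparison went from 847 to 373. At 2 mg/kg against 0.2 mg/kg 2 rose, Sgk1 again and the metallothionein gene Mt1, whose call (2.96 ± 0.87, limma adjusted p = 0.0489) was lost in 17 of the 22 fits that left out 1 liver. At 0.2 mg/kg against controls Pck1, the gluconeogenic enzyme, was lower (−0.34 ± 0.10, limma adjusted p = 0.0447), a call lost in 13 of the 22 fits that left out 1 liver. Tsc22d3, a glucocorticoid-induced leucine zipper gene, was higher after BLT-1 plus 0.2 mg/kg, with 37.9 ± 4.65 CPM (SD, n = 4), than at 0.2 mg/kg alone, with 21.5 ± 2.07 (SD, n = 8; 0.80 ± 0.15, limma adjusted p = 0.0286). This call was lost in 8 of those fits. It was also higher than in controls (0.63 ± 0.15, limma adjusted p = 0.0263), a call lost in 4 of them, while none of the 7 tested p53 target genes was called after BLT-1. With the stretch of liver numbers as a block, both calls for Tsc22d3 and that for Angptl4 were lost. On the authors' spike-in scale none of the calls named for the other p53 targets, the integrated stress response and the glucocorticoid and fasting genes was made. With only the groups compared in the fit, the calls against controls were lost for Trp53inp2, Fas and Angptl4 at 2 mg/kg, for Pck1 at 0.2 mg/kg and for Tsc22d3 after BLT-1.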

How the data were processed

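RNA of 22 mouse livers was sequenced from 3′ ends with ERCC spike-ins, per the labels' protocols. The submitters' processing notes name bcl2fastq, Trim Galore 0.6.7, STAR 2.7.9a, Salmon 1.5.2, R 4.1.1, DESeq2 1.32.0 and build GRCm39. The deposited signal is, as its values show, whole gene counts divided by 1 spike-in-based factor per library: 100% of the values came out whole within 0.001, so the counts behind the authors' signal were recovered. The table has 16553 rows, 84 of them spike-ins, and 0 value columns were unused. The p53 target genes, gene lists, tests and scaling were chosen with earlier results of these data known.

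CPM (counts scaled to library size, with TMM factors) were tested as log2(value + 0.5) with limma 3.58.1 (trend; R 4.3.3) on genes at 1 CPM or more in at least 3 livers, with 1 fit over the 4 groups, Benjamini-Hochberg adjustment over 10763 genes and a threshold of 0.05. TMM replaced the deposited scale because the ratio of the 2 scales spread over 0.628 to 1.72 between livers. On the deposited scale the median log2 fold change of all genes was −0.11 at 0.2 mg/kg and −0.23 at 2 mg/kg against controls, −0.12 at 2 mg/kg against 0.2 mg/kg, and 0.16 and 0.05 after BLT-1 against 0.2 mg/kg and controls. Alternatives were edgeR 4.0.16 (quasi-likelihood), DESeq2 1.42.0, limma voom, other size factors, pseudocounts and filters, the deposited scale, a block by run of liver numbers, and livers left out. Of each list other than the members, up to 4 called genes or, with none called, up to 2 of highest level were named by rule, and for likeness the 3 genes with the highest r. The labels do not say that livers are separate animals, so that p-values measure the spread between these samples, which may be technical. Pairs of livers of 1 group differed by more than counting (chi-square per degree of freedom 12.4 to 79.1). The limit for a count of 0 is 3 counts and covers counting error only, and the reads carry no stated molecular identifiers. The fits were tested on simulated data. Correlations used 100000 permutations within groups.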

Additional observations from a re-analysis of the deposited data

Results flagged for a closer look

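Gadd45a was at 0.294 CPM in control liver 27, from 2 reads, while the next lowest of the 7 controls was at 1.87 CPM. The gap, 0.614 of the controls' whole range, is above the critical value of 0.568 for 7 samples. Chance flags about 1 in 20 groups, and 30 groups of p53 target genes were examined this way. Without this liver, no comparison called Gadd45a.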

How the results depend on the processing

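At 0.2 mg/kg against controls 1 p53 target gene was called, Trp53inp1. The count was 0 on the deposited spike-in scale, with limma voom, with no filter on low values, with the run of liver numbers as a block, without controls 28 and 29, and at an adjusted p under 0.01. It was 2 with only the groups compared (Trp53inp1 and Mdm2), and 0 to 2 when 1 liver was left out, with a count of 1 in 14 of 22 such fits. It was 1 with edgeR, DESeq2, RLE size factors and pseudocounts of 0.1 and 2. The cause of these differences was not tested. At 2 mg/kg against controls 0 were called under these 12 settings, with 0 to 3 when 1 liver was left out. The other 3 comparisons had 0 calls under all of these settings and all 22 fits that left out 1 liver. Relations of Cdkn1a to the other 9 members that passed the adjustment numbered 0, but 7 on the deposited spike-in scale. The ratio of that scale to the TMM scale spread over 0.628 to 1.72 between livers, which shifts all genes of a liver together. The sign of the log2 fold change of Cdkn1a at 0.2 mg/kg against controls was reversed in 5 settings (range −0.31 to 0.33), and that of Trp53inp1 there in 0 settings. No paired analysis was possible because no liver number is shared between groups. Depth limits Phlda3, Zmat3 and Sesn2, which have at most 10 reads in any liver.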
